A study of Mus musculus with 21 samples.

Results

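The nuclear genes for the subunits of the oxidative phosphorylation machinery were followed in 7 groups of mouse embryonic libraries. Members were defined by symbol, by a rule chosen with earlier results of these data known. It takes every gene whose symbol begins with the stems of complex I (Nduf with a letter a, b, c, s or v and a number), complex II (Sdha to Sdhd), complex III (Uqcr), complex IV (Cox4 to Cox8) or complex V (Atp5), with the pseudogene Ndufs5-ps and the paralogue Ndufa4l2 set aside. This gave 85 of the 24594 genes in the tables, of which 37 belonged to complex I, 4 to complex II, 8 to complex III, 19 to complex IV and 17 to complex V. Ndufa4, named for complex I, was counted with complex IV, where its protein is now placed, and the supercomplex factor Cox7a2l was counted there as well. The 13 subunits encoded in mitochondrial DNA were not analysed here, because the tables hold 0 genes with mitochondrial symbols.

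Oxidative phosphorylation takes place in the inner mitochondrial membrane. Complexes I and II pass electrons from NADH and succinate to ubiquinone, complex III passes them to cytochrome c and complex IV to oxygen, and complex V uses the proton gradient that results to make ATP. Most subunits are encoded in the nucleus, are needed in fixed proportions within a complex, and are transcribed in nearly every cell type. Several subunits of complex IV also come as tissue-restricted isoforms, which replace the widely expressed form in muscle, lung or testis.

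2 sets of libraries were used and were never compared with each other, because they were sequenced differently. The stage series held cranial neural crest cells (CNCCs), migratory cells of the embryo that form much of the skeleton of the face, sorted by flow cytometry for red fluorescence from Wnt1::Cre;ROSA RFP embryos, in which the Wnt1 driver labels cells of neural crest origin and their descendants. Its 3 groups, named by embryonic day, were pharyngeal arch 2 (PA2) at E10.5, and the pinna, the outer ear that forms from PA2, at E12.5 and at E14.5. The genotype series held PA2 and PA3 dissected at E10.5 from wild-type (WT) mice and from mice homozygous for a deletion of HIRE1 (HIRE1del), a distal regulatory region of Hoxa2, and no sorting was stated for it although the labels call these libraries CNCCs too. All mice were of mixed C57Bl/6J and CD1 background. Each group had 3 libraries, which the labels describe as independent biological replicates.

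Total counts per library were 25814151 to 49058941 in the stage series, where the 3 libraries of E14.5 (47506139 or more) were the deepest, and 25804446 to 32210131 in the genotype series. Stage and tissue changed together from E10.5 to E12.5, where the cells were freed with trypsin at both stages. In both comparisons with E14.5, stage, depth and enzyme (papain at E14.5) changed together, and from E10.5 PA2 to E14.5 pinna tissue changed too. These cannot be told apart. In bulk RNA, fewer cells of a type and less RNA per cell cannot be told apart either. In the genotype series, Hoxa2 had 1896, 2201 and 2736 counts in WT PA2 and 153, 122 and 192 counts in HIRE1del PA2. It had 1465, 1762 and 2023 counts in WT PA3 against 634, 733 and 637 in HIRE1del PA3, so every library matched its genotype label. Hoxa3 had 95, 86 and 115 counts in WT PA2 against 779, 773 and 922 in WT PA3. In HIRE1del it had 15, 0 and 8 counts in PA2 against 168, 216 and 155 in PA3, so the arch labels matched within each genotype. The genotype libraries were not pure CNCCs, since the summed level of 7 erythroid genes reached 1528 to 3325 CPM in PA2 and 12390 to 24520 CPM in PA3. CPM stands throughout for a gene's counts per 1000000 counts of the library, with library sizes corrected by TMM, edgeR's trimmed mean of M values. In the sorted stage series the same erythroid genes summed to between 1.84 and 14.6 CPM in the 9 libraries.

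A gene was tested where at least 2 libraries of its table reached 1 CPM, which left 13438 genes and 74 members in the stage series and 14383 genes and 78 members in the genotype series. In the stage series 11 members did not pass. Of these, 6 are copies or isoforms known from other tissues or named as copies: Cox6a2 and Cox7b2 had at most 3 and 5 counts in a library, Cox8b, Cox8c and Ndufb11b had 0 in all 9, and Ndufb4c had at most 3. Cox7a1, the isoform of heart and skeletal muscle, had 11 to 32 counts. The other 4 members encode subunits that every respiring cell uses, and their counts cannot be read as absence of the RNA. Ndufa7 had 0 counts in all 9 stage libraries, Ndufs3 had 1 count in 1 library, Atp5a1 (the alpha subunit of the F1 head) had 2 to 12 counts, and Uqcrc1 had 0 or 1 count in 8 libraries and 309 in replicate 2 of E12.5. In the genotype series Atp5a1 had 1827 to 3850 counts and Uqcrc1 454 to 1478, the latter running from 454 to 1478 within HIRE1del PA2 alone, while Ndufs3 had 13 to 50 counts and Ndufa7 0 in 11 of 12 libraries. The reason for the low counts was not tested. None of the 4 enters a count of stage calls below, and all but Ndufa7 are among the 78 members tested in the genotype series. The summed levels below take in all members, so the low counts of the 4 enter them as they stand. Uqcrc1 adds 10.09 CPM to replicate 2 of E12.5. Apart from that library, the stage sums of complexes I, III and V nearly lack these subunits. At these depths, 3 counts, the most that a count of 0 allows, correspond to between 0.0612 and 0.116 CPM, counting error only.

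The summed level of all members fell at each stage (plot of summed levels by complex). It was 7877, 7846 and 7325 CPM in the E10.5 PA2 libraries, 5456, 5370 and 5398 CPM in E12.5 pinna and 4096, 3944 and 3984 CPM in E14.5 pinna, so the groups did not overlap and E14.5 stood at 52.2% of E10.5. Every complex took part. Complex I went from 2239 ± 83.2 to 1701 ± 25.2 and 1313 ± 34.2 CPM (mean ± SD, n = 3), complex II from 614.5 ± 19.2 to 440.8 ± 12.1 and 328.3 ± 9.44, and complex III from 611.4 ± 34.5 to 447.5 ± 4.22 and 330.6 ± 4.89. Complex IV went from 1262 ± 57.4 to 910.2 ± 16.0 and 635.6 ± 17.6 CPM, and complex V from 2955 ± 128 to 1908 ± 6.55 and 1400 ± 19.4. The sum of complex V kept 47.4% of its E10.5 level at E14.5 and that of complex I 58.6%, with complexes II (53.4%), III (54.1%) and IV (50.4%) between them. These differences between complexes are descriptions and were not tested. The largest single contribution to the sum of complex V was Atp5b, the catalytic beta subunit of the F1 head, at 1630, 1601 and 1506 CPM in E10.5 and 691, 674 and 672 CPM in E14.5.

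**Figure D1:**
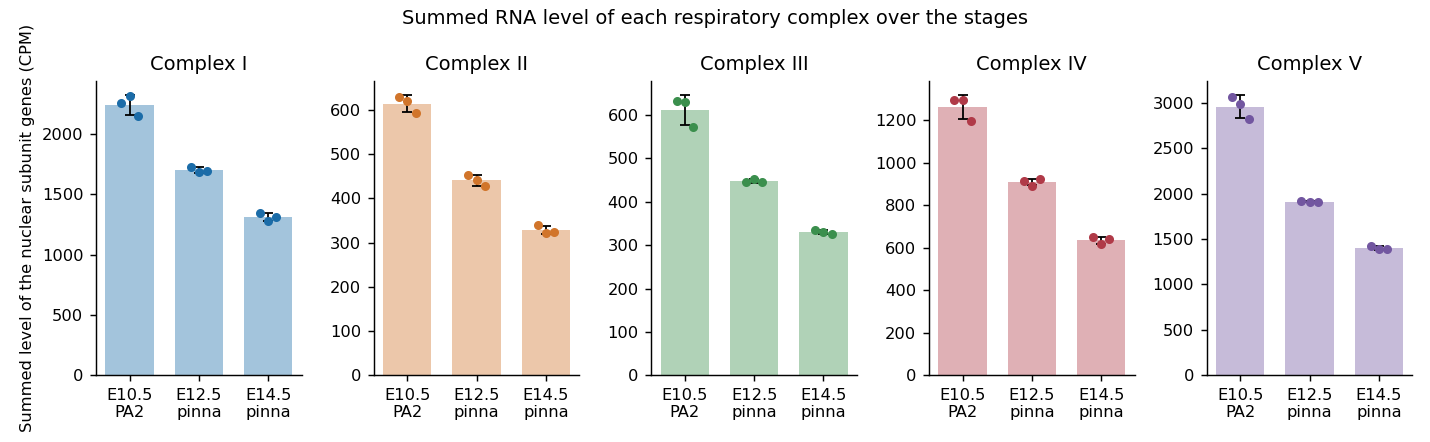
Summed level (CPM) of the nuclear subunit genes of each complex in the 3 stage groups, with points for the 3 libraries, bars for their mean and whiskers for the SD. In each of the 5 complexes the 3 groups are separated and fall from E10.5 PA2 through E12.5 pinna to E14.5 pinna.

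Gene by gene, the fall was close to uniform in direction and varied in size. Between E10.5 PA2 and E14.5 pinna, 69 of the 74 members tested were called lower and 1 higher by edgeR's quasi-likelihood test (adjusted p under 0.05 over all genes), with a median log2 fold change of -0.94. Over all genes, 40.0% were called lower and 42.0% higher, with a median of 0.02. By complex, 31 of 33 members of complex I, 4 of 4 of complex II, 7 of 7 of complex III, 11 of 14 of complex IV and 16 of 16 of complex V were called lower, and the medians were -0.80, -0.96, -1.19, -1.13 and -1.0. The log2 fold change was -1 or below, a level at or under 50% of that at E10.5, in 32 members. The 4 members not called were Ndufb2 (-0.16), Ndufv3 (-0.14), Cox7a2l (-0.09) and Cox6b2 (-0.02), and the only member called higher was Cox4i2 (plot of subunit genes at E14.5 against E10.5).

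**Figure D2:**
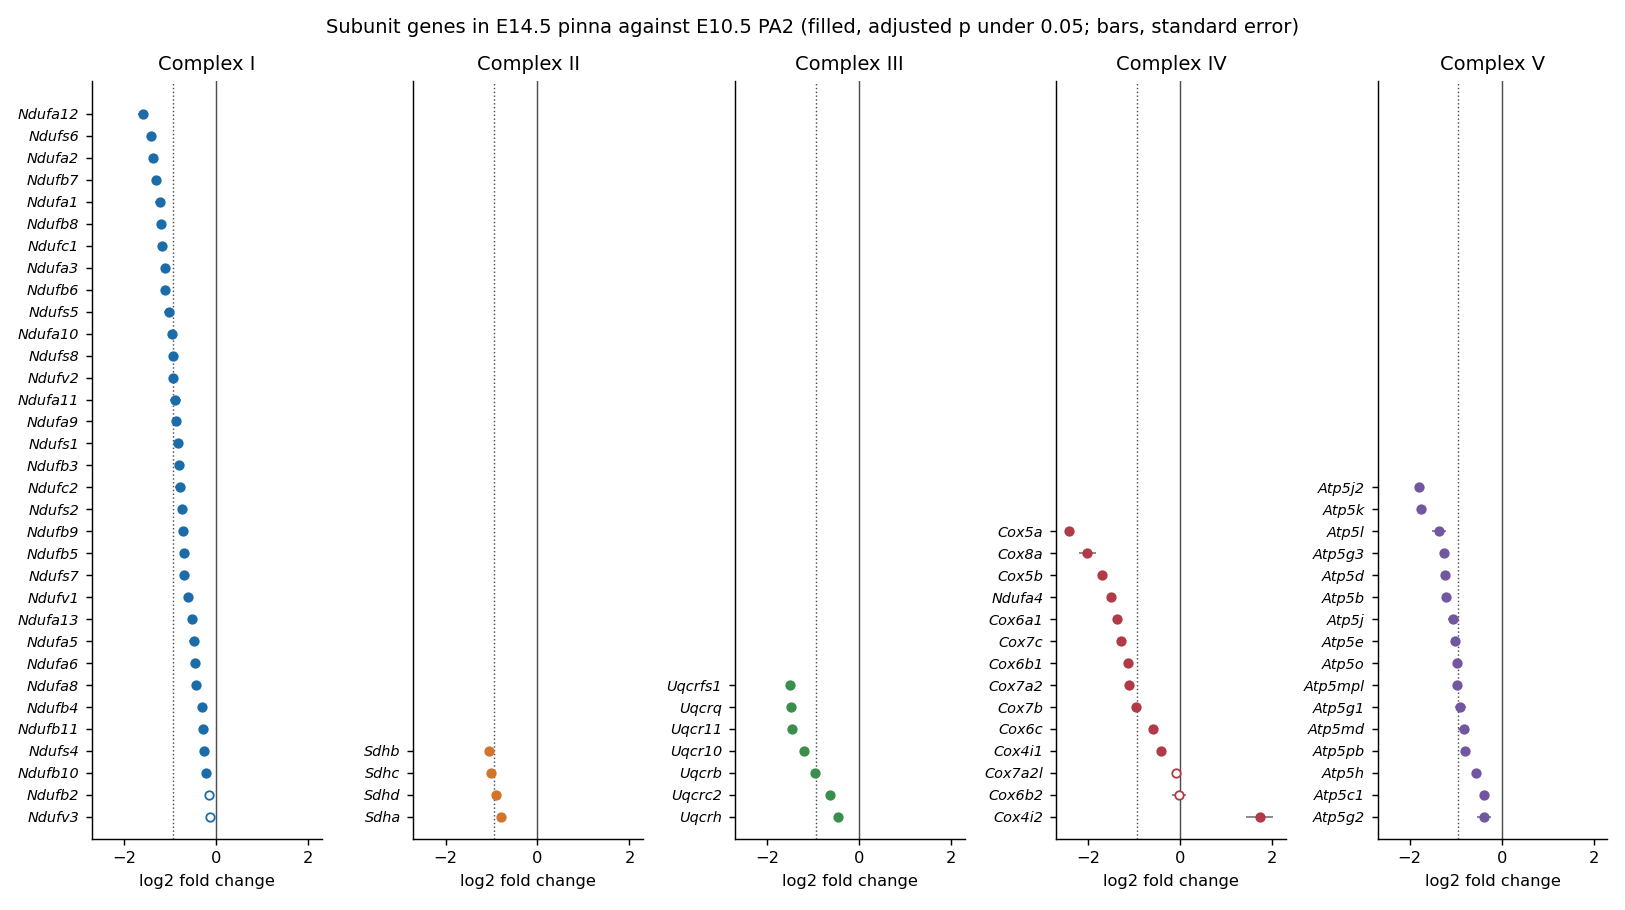
Log2 fold change of the 74 tested members between E14.5 pinna and E10.5 PA2 (3 libraries each), sorted within each complex. Filled points have an edgeR adjusted p under 0.05, bars are standard errors, the solid line marks 0 and the dotted line the median of all members, -0.94; Cox4i2 alone lies clearly to the right of 0.

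Both steps contributed. From E10.5 PA2 to E12.5 pinna, 61 members were called lower and 1 higher (median -0.43), where 33.7% of all genes were called lower and 35.0% higher. From E12.5 to E14.5 pinna, 63 members were called lower and 1 higher (median -0.47), where 33.1% of all genes were called lower and 32.6% higher. The medians of complexes I to V were -0.34, -0.50, -0.61, -0.52 and -0.45 in the first step and -0.40, -0.43, -0.58, -0.63 and -0.48 in the second. The 2 steps share the E12.5 libraries, so these counts are not independent of each other.

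Members of complex I, which oxidises NADH, spanned the range from no call to a log2 fall of 1.59. Ndufa12, an accessory subunit of the peripheral arm, had 37.5, 31.6 and 27.6 CPM at E10.5, 17.6, 17.4 and 19.2 at E12.5 and 10.2, 11.6 and 10.4 at E14.5. The groups did not overlap, and its log2 fold change over the whole interval was -1.59 ± 0.11 (SE; edgeR adjusted p = 1.2e-07), the largest fall in this complex. Among core subunits, which carry the electron path, Ndufs1 fell by 0.82 ± 0.06 on the log2 scale (182.6 ± 9.56 to 103.3 ± 5.97 CPM), Ndufv1, the subunit that receives electrons from NADH, by 0.62 ± 0.07, Ndufs7, at the ubiquinone site, by 0.70 ± 0.09, and the accessory Ndufa9 by 0.87 ± 0.06. Members differed in the step in which they were called, though the steps were not tested against each other. Ndufa1 had 20.9, 20.5 and 19.9 CPM at E10.5 and 18.4, 18.9 and 18.8 at E12.5, a log2 difference of -0.13 ± 0.10 that was not called, and then 10.2, 8.66 and 7.58 CPM at E14.5, the largest fall of complex I in the second step (-1.09 ± 0.11, edgeR adjusted p = 4.61e-06). Ndufb10 had 44.6 to 47.8, 40.8 to 42.7 and 36.5 to 42.4 CPM in the 3 groups, and was called in neither step but lower over the whole interval (-0.23 ± 0.07, edgeR adjusted p = 0.00964).

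The 4 subunits of complex II, which is also the succinate dehydrogenase of the TCA cycle, fell together. Sdha, the flavoprotein, went from 268.7 ± 5.95 CPM at E10.5 to 204.5 ± 3.72 and 153.9 ± 3.38, and Sdhb, the iron-sulfur subunit, from 128.8 ± 7.73 to 85.3 ± 4.85 and 62.3 ± 2.25. The membrane anchors Sdhc and Sdhd had log2 fold changes of -1.0 ± 0.07 and -0.91 ± 0.06 over the whole interval. Sdhd had the largest fall of the 4 in the first step (-0.63) and the smallest in the second (-0.28), and these differences among the 4 were not tested.

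In complex III, Uqcrfs1, the Rieske iron-sulfur protein, had 117.3, 122.9 and 109.2 CPM at E10.5, 72.1, 74.4 and 75.4 at E12.5 and 37.6, 43.4 and 43.1 at E14.5, a fall of 1.49 ± 0.07 on the log2 scale (edgeR adjusted p = 4.22e-09). The small subunits Uqcr11, Uqcrq and Uqcr10 fell by 1.45, 1.47 and 1.19 on the log2 scale and Uqcrb by 0.96. The core protein Uqcrc2 fell by 0.64 and Uqcrh by 0.47. All 7 tested members of the complex were called in each step.

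Complex IV, cytochrome c oxidase, held both the largest fall and the rises. Cox5a had 100, 95.4 and 90.9 CPM at E10.5, 45.4, 48.8 and 48.5 at E12.5 and 16.9, 18.5 and 17.9 at E14.5. This is a 5.38-fold fall (log2 fold change -2.43 ± 0.07, edgeR adjusted p = 7.12e-11), the largest of the 74 members. Cox5a lies at chr9:57521274-57532426 on the plus strand (GRCm38), and 269 of its exon bases overlap the antisense gene Gm26631. The kit is described as unstranded, so reads of the 2 genes cannot be told apart there. Cox8a (90.6 ± 4.55 to 22.3 ± 8.05 CPM) and Cox5b (57.1 ± 4.14 to 17.6 ± 2.58 CPM) followed, with log2 fold changes of -2.02 ± 0.19 and -1.70 ± 0.10, and Ndufa4 with -1.51 ± 0.09. Cox4i1 fell by much less, from 268, 284 and 261 CPM to 216, 190 and 204 CPM (log2 fold change -0.42 ± 0.06), and its fall in the second step (-0.18, edgeR adjusted p = 0.0271) was lost in 5 of 15 alternative fits, with adjusted p between 0.00105 and 0.0959 over all of them. With the median of all genes of like exon length subtracted, its direction turned, to 0.02 over the whole interval and 0.11 in the second step.

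2 isoforms of complex IV moved against the rest (plot of complex IV subunits over the stages). Cox4i2, the alternative form of subunit 4 known from lung and from low oxygen, had 49, 42 and 22 counts at E10.5, 31, 27 and 38 at E12.5 and 173, 169 and 238 at E14.5, or 1.64, 1.44 and 0.719, then 1.15, 0.882 and 1.29, then 3.81, 3.55 and 5.21 CPM. Every E14.5 library was above all others. The rise from E12.5 to E14.5 was 1.92 ± 0.30 on the log2 scale (edgeR adjusted p = 0.000203, and between 2.02e-08 and 0.00146 over 14 alternatives). Its level stayed far below that of Cox4i1, at 5.32 against 131 CPM per kilobase of exon at E14.5. Cox6b2, the testis form of subunit 6B, had 3.68, 3.88 and 4.22 CPM at E10.5, 8.54, 7.22 and 9.52 at E12.5 and 3.92, 3.53 and 4.16 at E14.5. It was thus high at E12.5 alone, with a log2 fold change of 1.10 ± 0.15 in the first step (edgeR adjusted p = 5.32e-05) and -1.12 ± 0.15 in the second (4.74e-05), and the first and last groups overlapped. Its widely expressed counterpart Cox6b1 fell in both steps, from 141.5 ± 5.14 to 63.9 ± 3.59 CPM overall. Ndufa4l2, the paralogue of Ndufa4 that the choice of members left out, had 7, 3 and 3 counts at E10.5, 0, 1 and 0 at E12.5 and 281, 260 and 524 at E14.5, while Ndufa4 itself fell.

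**Figure D3:**
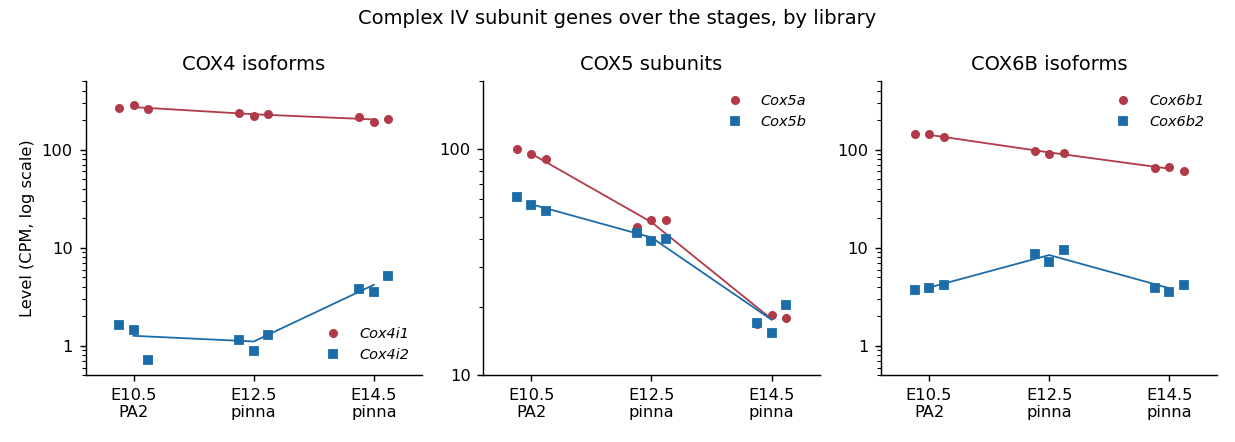
Level (CPM, log axis) of 6 complex IV subunit genes in the 9 stage libraries, with lines through the group means. Cox4i1, Cox5a, Cox5b and Cox6b1 fall; Cox4i2 is highest in the 3 libraries of E14.5 and Cox6b2 in the 3 of E12.5.

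All 16 tested members of complex V, the ATP synthase, were called lower over the whole interval. Atp5j2 and Atp5k, the f and e subunits of the membrane part, fell most: Atp5j2 had 72.5, 73.9 and 65.3 CPM at E10.5 and 22.8, 18.2 and 20.2 at E14.5 (log2 fold change -1.79 ± 0.09, edgeR adjusted p = 6.65e-09), and Atp5k 76.9, 79.1 and 70.1 against 23.6, 22.6 and 21.1 CPM (-1.75 ± 0.07). Atp5b fell mostly in the first step (-0.79 ± 0.05, the largest fall of the complex there, against -0.42 ± 0.05 in the second), and Atp5c1, the gamma subunit of the central shaft, by 0.39 ± 0.06 overall. The c ring is encoded by 3 genes for 1 mature protein. Of the 3, Atp5g3 had the most counted RNA (174.6 ± 13.1 to 73.3 ± 3.11 CPM) and fell by 1.25 ± 0.07. Atp5g1 (29.4 ± 1.89 to 15.8 ± 2.3 CPM) fell by 0.90 ± 0.12, and Atp5g2 (6.40 ± 0.87 to 4.89 ± 0.35 CPM) by 0.39 ± 0.15 (edgeR adjusted p = 0.0279). The call on Atp5g2 was lost without replicate 2 of E10.5 (edgeR adjusted p = 0.139) and without replicate 1 or 3 of E14.5, 3 of 15 alternative fits, over which the adjusted p ran from 0.013 to 0.139. Of all 50-base windows in Atp5g2 transcripts, 38.35% also occur in other genes, so its counts are uncertain. With the median of its exon-length class subtracted, its change over the whole interval turned to 0.05. Shared windows were not limited to Atp5g2. They exceeded 10% in 20 of the 84 members with windows, among them Atp5o (41.6%), Uqcrb (25.54%) and Ndufa12 (17.74%). Exons of 29 of the 85 members overlap exons of another gene.

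The start regions of 4 members are shown because they carried the results above: Cox5a, the largest fall, Cox6b2, the gene highest at E12.5 alone, and the members with the largest falls among those whose window holds the core letters bound by NRF1 (Atp5k) or by ETS factors such as GABP (Uqcr11), regulators known for respiratory genes. Each is the 250 bases before the transcription start given by RefSeq for GRCm38.p6, written 5′ to 3′ on the gene's strand, with matches in capitals. They lie at chr9:57520982-57521231 (plus), chr7:4753095-4753344 (minus), chr5:108434400-108434649 (minus) and chr10:80406822-80407071 (minus).
Cox5a: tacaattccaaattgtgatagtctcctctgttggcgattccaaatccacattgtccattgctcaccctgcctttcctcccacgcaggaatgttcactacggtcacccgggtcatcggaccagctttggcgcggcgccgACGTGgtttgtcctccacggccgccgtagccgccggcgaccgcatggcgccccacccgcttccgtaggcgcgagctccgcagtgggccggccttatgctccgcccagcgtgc
Cox6b2: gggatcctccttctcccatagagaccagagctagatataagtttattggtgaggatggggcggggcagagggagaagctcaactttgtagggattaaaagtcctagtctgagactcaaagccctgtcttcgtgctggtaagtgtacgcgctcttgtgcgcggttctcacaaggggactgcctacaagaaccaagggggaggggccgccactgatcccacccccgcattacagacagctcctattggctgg
Atp5k: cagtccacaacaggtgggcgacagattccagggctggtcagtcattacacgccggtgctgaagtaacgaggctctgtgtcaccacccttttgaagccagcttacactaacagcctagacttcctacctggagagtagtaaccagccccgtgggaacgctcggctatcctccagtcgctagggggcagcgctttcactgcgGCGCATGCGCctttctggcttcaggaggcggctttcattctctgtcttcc
Uqcr11: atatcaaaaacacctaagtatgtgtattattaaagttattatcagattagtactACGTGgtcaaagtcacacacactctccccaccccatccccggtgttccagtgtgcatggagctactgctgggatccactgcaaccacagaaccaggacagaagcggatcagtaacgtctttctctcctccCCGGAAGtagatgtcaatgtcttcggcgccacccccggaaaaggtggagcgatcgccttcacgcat
4 motifs were searched on both strands: GCGCATGCG (NRF1), CCGGAAG (ETS), ATGGCGGC (YY1) and ACGTG (hypoxia-inducible factors), none of which contains another. The capitals mark ACGTG in Cox5a, GCGCATGCGC in Atp5k, which holds the NRF1 letters on both strands, and ACGTG and then CCGGAAG in Uqcr11, and no letters matched in Cox6b2. Windows that also take in the first 50 transcribed bases were given for 69 of the 85 members and 27025 genes. The NRF1 letters were found in 8 members (11.6%) against 1.95% of all genes, the ETS letters in 17 (24.6%) against 9.93%, the YY1 letters in 7 (10.1%) against 2.60%, and ACGTG in 17 (24.6%) against 21.8%. All 7 members with the YY1 letters belonged to complex I, where 32 had a window. A match is a description of these letters and says nothing of binding.

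Members have short exons, with a median of 1363 exon bases, and 45 of the 74 tested in the stage series were in the shortest of 10 equal classes of exon length. Short genes as a whole were lower at later stages, with a median log2 fold change of -0.44 in that class from E10.5 to E14.5. With the median of all genes of the same length class subtracted, the members' median was -0.69 over the whole interval, -0.32 in the first step and -0.33 in the second. Across the 74 members the rank correlation of exon length with the change from E10.5 to E14.5 was 0.19, and across all 13438 genes 0.15. These points share libraries and are a description.

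Other genes of mitochondrial metabolism were followed in lists. The shares of all genes called lower and higher were 40.0% and 42.0% from E10.5 to E14.5. They were 33.7% and 35.0% in the first step and 33.1% and 32.6% in the second. Of 72 tested proteins of the mitochondrial ribosome, 66 were called lower and 1 higher from E10.5 to E14.5 (median -0.85). Mrpl34 fell by 2.16 and Mrpl12 by 1.91, and Mrpl48 rose by 0.44. All 12 import and cristae genes were called lower (median -0.84), led by Tomm40, the import channel of the outer membrane, at 116.2 to 34.3 CPM and a log2 fold change of -1.76. Of 7 tested subunits and carriers whose symbols fall outside the rule, 4 were called lower and 2 higher (median -0.53). Among these, Cyc1, the cytochrome c1 subunit of complex III, fell most (-1.37), and Ndufa4l2 rose most (5.7). Of 15 complex I assembly factors 12 were called lower and 0 higher (median -0.55), and of 29 factors for complexes II to V 21 lower and 2 higher (-0.62), the latter being Ttc19 (0.65) and Surf1 (0.39). TCA cycle genes were called lower in 15 of 17 (median -0.54), with citrate synthase, Cs, at -1.19, but mainly in the first step: 16 of 17 were called lower there, and in the second 7 lower and 3 higher.

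Glycolytic genes did not follow the subunits in the second step. From E10.5 to E12.5, 12 of 16 were called lower and 3 higher, with Ldha at -1.76 and Hk1 at 1.11. From E12.5 to E14.5, 1 was called lower (Pkm, -0.56) and 9 higher, among them Pfkp, a phosphofructokinase, which rose from 9.62 to 167.5 CPM (log2 fold change 4.12 ± 0.10, edgeR adjusted p = 4.76e-10). Of 14 regulators of mitochondrial biogenesis, 9 were called lower and 2 higher over the whole interval, where 40.0% of all genes were lower and 42.0% higher. Gabpb1 fell by 1.07 and Tfb1m by 0.93, whereas the coactivator genes Ppargc1a (1.87 to 8.09 CPM, log2 fold change 2.12 ± 0.23) and Ppargc1b (0.61) were higher. All 10 cell cycle genes were called lower in each step, and over the whole interval they ran from -1.51 for Mki67 to -2.60 for Mcm5. Of 70 proteins of the cytosolic ribosome, 49 were called lower and 3 higher (median -0.40).

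Markers of other cell types moved with stage as well. The 4 melanocyte markers were all called higher in each step and summed to 5.92 to 7.93, 31.4 to 44.2 and 335 to 384 CPM in the 3 groups, and 5 endothelial markers, of which 4 were tested and 1 was called higher over the whole interval, to 6.79 to 8.99, 19.0 to 26.2 and 108 to 173 CPM. The 8 mesenchyme markers summed to 1718 to 1995, 3518 to 3787 and 3758 to 4102 CPM, with 3 called higher and 3 lower over the whole interval. These counts were close to the shares of all genes, 42.0% called higher and 40.0% lower. Of 4 Schwann cell markers 3 were tested and all 3 were called higher over the whole interval, with sums of 10.6 to 12.6, 11.5 to 12.6 and 32.6 to 45.2 CPM, and of 4 macrophage markers 2 were tested and both were called higher, with sums of 4.15 to 4.77, 3.396 to 4.248 and 6.81 to 12.05 CPM. The 4 chondrocyte markers, of which 3 were tested, summed to 1144 to 1213, 591 to 623 and 230 to 278 CPM, with 1 called higher and 2 lower. Of 5 tested epithelial markers 3 were called higher and 2 lower, of 4 tested neuron markers 2 higher and 2 lower, and of 4 tested skeletal muscle markers 2 higher and 0 lower. Foxd3, Matn1 and Aif1, which belong to the Schwann cell, chondrocyte and macrophage lists, had 0 counts in all 9 stage libraries. The part of these cell types in the results above was not tested.

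At E10.5, the members' summed levels overlapped between the arches in WT embryos (7633 to 8052 CPM in PA2 and 7834 to 8439 CPM in PA3) and did not in HIRE1del embryos (7953 to 8282 against 8525 to 9284 CPM). In WT 14 of 78 members were called higher in PA3 and 0 lower (median log2 fold change 0.07), where 19.1% of all genes were called higher and 17.4% lower, so the share of members called higher was close to that of all genes. In HIRE1del embryos 28 were called higher and 0 lower (median 0.17), where 18.7% of all genes were higher and 14.7% lower. The WT count rested on single libraries, with 6 calls without replicate 3 of WT PA2 and 8 without replicate 3 of WT PA3. Same-numbered PA2 and PA3 libraries deviated together, and a fit with the replicate number as a block called 21 members in WT and 36 in HIRE1del, all higher. The 14 and 28 calls, and the shares of all genes beside them, are from the fit without that block. No share of all genes is given here for the fit with the block, so its 21 and 36 calls cannot be set against one. The nearness of the WT share to that of all genes is therefore stated for the fit without the block only. The comparisons in WT and HIRE1del share no library, and 12 members were called in both, which is 85.7% of the WT calls and 42.9% of the HIRE1del calls. Over all genes, 77.1% of those called higher in WT and 79.0% of those called higher in HIRE1del were called higher in both. By complex, 7, 0, 1, 5 and 1 members of complexes I to V were called in WT and 8, 0, 4, 9 and 7 in HIRE1del. The 4 subunits of complex II were called in neither, and Sdha was at 269.3 ± 6.72 CPM in WT PA2 and 264.2 ± 11.1 in WT PA3. Among other lists, of 72 cytosolic ribosome genes 10 were called higher in PA3 in WT and 23 in HIRE1del, with 0 lower. Of 73 mitochondrial ribosome genes, 4 were higher and 4 lower in WT, and 12 higher and 2 lower in HIRE1del. Of 12 import and cristae genes, 0 were higher and 1 lower in each genotype.

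The same 2 isoforms that moved alone over the stages differed most between the arches (plots of members by arch and by library). Cox4i2 had 1.70, 2.00 and 1.88 CPM in WT PA2 and 4.25, 3.75 and 4.70 in WT PA3, and 2.37, 1.72 and 1.66 against 3.74, 3.36 and 2.99 in HIRE1del. PA3 was above PA2 in every library, with log2 fold changes of 1.18 ± 0.19 (edgeR adjusted p = 0.000322) and 0.81 ± 0.19 (0.00509). Cox6b2 had 3.99, 3.72 and 4.56 CPM in WT PA2 and 7.04, 7.65 and 7.30 in WT PA3 (0.84 ± 0.16, adjusted p = 0.00137), and 3.57, 3.51 and 4.10 against 8.04, 5.63 and 8.62 in HIRE1del (0.99 ± 0.16, adjusted p = 0.000498). Both genes were read from few counts, with 44 to 146 per library for Cox4i2. Ndufa4l2 was also higher in PA3, by 2.03 ± 0.29 in WT and 1.88 ± 0.31 in HIRE1del.

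The other calls were small. Atp5e, the epsilon subunit of the F1 head, had 68.8, 73.2 and 68.3 CPM in WT PA2 and 90.0, 90.3 and 93.2 in WT PA3 (0.38 ± 0.07), and differed by 0.41 ± 0.07 in HIRE1del. Among the called members of complex I, Ndufa6 had the largest difference in WT (0.37 ± 0.08) and Ndufa5 in HIRE1del, where it had 28.9, 30.6 and 32.6 CPM in PA2 and 47.6, 41.1 and 38.2 in PA3 (0.46 ± 0.08). Uqcr11 (0.32 ± 0.09, WT) and Uqcr10 (0.30 ± 0.07, HIRE1del) were the called members of complex III with the largest differences. Atp5b, the most abundant member, was at 1495 ± 44.3 CPM in WT PA2 and 1537 ± 50.6 in WT PA3.

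**Figure D4:**
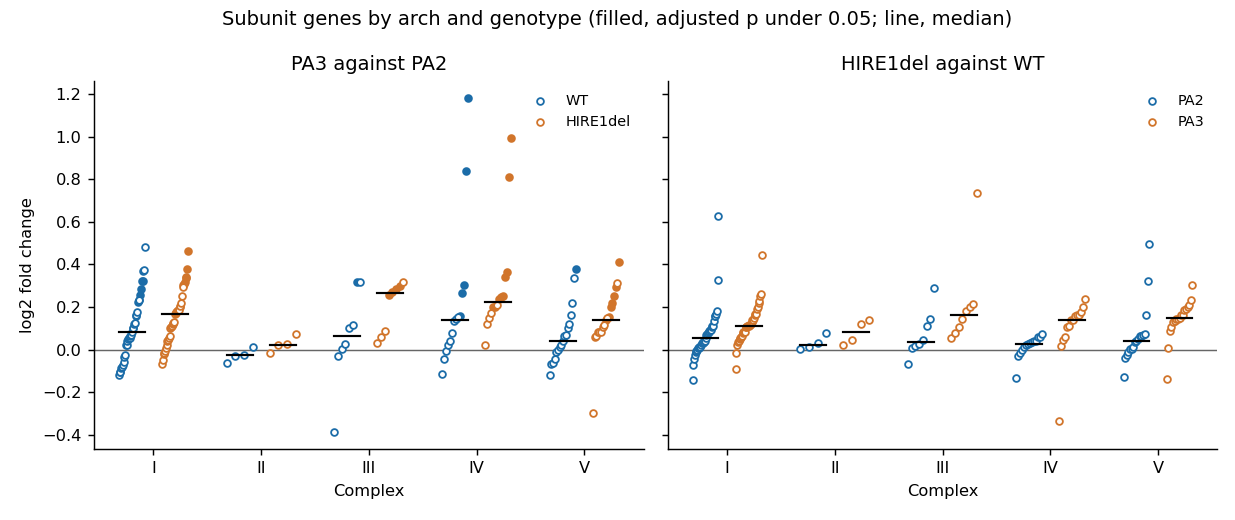
Log2 fold changes of the 78 tested members by complex, for PA3 against PA2 (left, in each genotype) and HIRE1del against WT (right, in each arch), with filled points for an edgeR adjusted p under 0.05 and lines for medians. Filled points are all above 0 in the arch comparison, 14 in WT and 28 in HIRE1del, and 0 are filled in the genotype comparison.

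**Figure D5:**
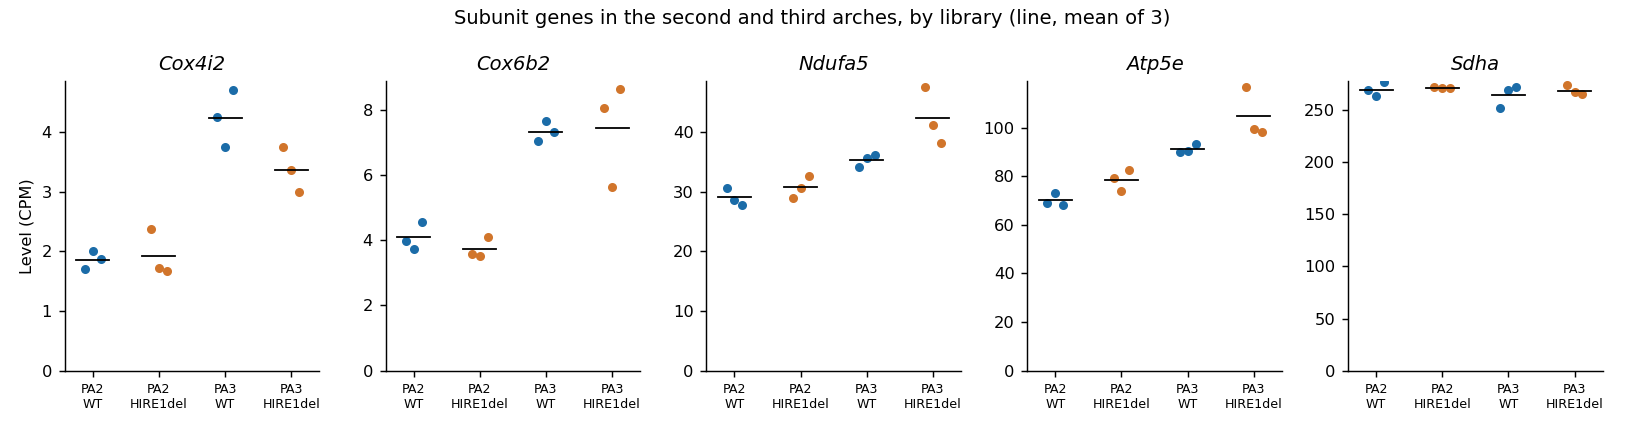
Level (CPM) of 5 members in the 12 genotype libraries, 3 per group, with lines for group means. Cox4i2, Cox6b2, Ndufa5 and Atp5e lie higher in PA3 than in PA2 in both genotypes, and Sdha, the complex II flavoprotein, does not.

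Exon length ran along with these differences. The rank correlation of exon length with the PA3 to PA2 difference was -0.41 across the 78 members in WT and -0.48 in HIRE1del, against -0.12 and -0.13 across all 14383 genes. With the median of the same length class subtracted, the members' median was 0.01 in WT and 0.08 in HIRE1del. Cell makeup differed too. All 7 tested erythroid genes were called higher in PA3 in both genotypes, with sums of 1528 to 2404 CPM in WT PA2 and 12390 to 24300 in WT PA3, and 1584 to 3325 against 14450 to 24520 CPM in HIRE1del. All 5 neuron markers, 4 of 6 epithelial and 4 of 5 endothelial markers were called higher in PA3 in both. In both, 1 epithelial marker was called lower. Of 8 mesenchyme markers, 6 were lower and 1 higher in WT, and 7 lower and 1 higher in HIRE1del. The 2 tested chondrocyte markers were lower in both. Of 6 tested skeletal muscle markers, 2 were higher and 2 lower in WT, and 2 higher and 1 lower in HIRE1del. Over all genes, 19.1% were called higher and 17.4% lower in WT, and 18.7% and 14.7% in HIRE1del. The part of these cell types in the differences between arches was not tested.

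HIRE1 deletion changed no member past the threshold. In PA2, 0 of 78 members were called (edgeR), 6 had an unadjusted p under 0.05, all 6 higher in HIRE1del, and DESeq2 and limma-voom called 0 each. Over all genes 0.438% were called and 8.57% had an unadjusted p under 0.05. The summed level was 8052, 8039 and 7633 CPM in WT and 8204, 7953 and 8282 CPM in HIRE1del, which overlapped, and the smallest adjusted p of a member was 0.407, for Atp5g1 (0.32 ± 0.11). In PA3, 0 of 78 were called by any of the 3 tools, with 29 members at an unadjusted p under 0.05, all 29 higher in HIRE1del. Over all genes 0.216% were called and 9.73% had an unadjusted p under 0.05. The median over members was 0.13, with 74 of 78 above 0, where 7096 of 14383 genes were above 0. The largest support was for Cox7a2, Ndufb6, Atp5k, Atp5g3 and Atp5o, at 0.16 to 0.25 and an edgeR adjusted p of 0.259 each.

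In PA3 the sums were 7834, 8259 and 8439 CPM in WT and 9284, 8822 and 8525 CPM in HIRE1del, so every HIRE1del library was above every WT library. Gene by gene, 29 members had every HIRE1del library above every WT library in PA3, where 6.96% of all genes did, and 10 in PA2, where 5.73% did. The shift in PA3 was not particular to the members. Above 0 were also 68 of 73 mitochondrial ribosome genes, 67 of 72 cytosolic ribosome genes and 12 of 12 import and cristae genes. Their medians were 0.11, 0.11 and 0.08. So were 10 of 10 cell cycle genes, 14 of 15 complex I assembly factors, 23 of 29 factors for complexes II to V and 16 of 18 TCA cycle genes. Over all genes, 7096 of 14383 were above 0. Glycolytic genes (9 of 16 above 0) and biogenesis regulators (5 of 14) showed no such shift. With the median of the same length class subtracted, the members' median in PA3 was 0.09. The median standard error of a member in these contrasts was 0.07 on the log2 scale. The test of the difference between the arches in the response to HIRE1 deletion called 0 members (0.0487% of all genes), with 9 higher and 1 lower at an unadjusted p under 0.05, where 5.52% of all genes were, and DESeq2 and limma-voom called 0 each. A difference between PA2 and PA3 in this response was not detectable with these libraries.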

How the data were processed

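RNA-seq read counts per gene were deposited by the authors in 2 tables, made from spliced alignments to GRCm38 (mm10) and counted over UCSC known genes, as whole-number counts without normalization. The labels describe an unstranded kit, whereas the study's methods set counting to the opposite strand, and the effect was not tested. The stage table held single-end and the genotype table paired-end libraries.

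The members and gene lists were chosen with earlier results of these data known. Genes at 1 CPM in at least 2 libraries were fitted per table with edgeR 4.0.16 in R 4.3.3 (TMM, quasi-likelihood, 1 mean per group), and p-values were adjusted by Benjamini and Hochberg over all genes, with calls at 0.05. The code was tested on simulated data. Genes were named by a rule: members with the largest called change in each direction and complex, fixed core subunits and isoforms, and the extremes of each list. Genes named outside it (Ndufb2, Ndufb6, Ndufb10, Ndufv3, Uqcrq, Uqcrc2, Uqcrh, Cox7a2, Atp5k, Atp5o, Mki67) were chosen after their values were seen. Alternatives were other scalings, filters, DESeq2 1.42.0, limma 3.58.1 with voom, a replicate block, leaving out libraries and subtracting medians of 10 exon-length classes.

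Same-numbered PA2 and PA3 libraries correlated in their deviations from group means (0.23 to 0.382 in WT, 0.213 to 0.342 in HIRE1del), each best with its own number. The reported arch tests did not use this pairing, which entered only the alternative fits with a replicate block. Counts of reads are not independent molecules, and limits from counts cover counting error only. Exon lengths and overlaps came from the deposited table and a GRCm38 annotation, and promoters from RefSeq.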

Additional observations from a re-analysis of the deposited data

How the results depend on the processing

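Counts of members called kept their direction and stayed within 1.5 times the reported count under the 9 alternatives, other than leaving out a library, that give a test, with 61 to 64 (E12.5 against E10.5), 58 to 70 (E14.5 against E12.5), 67 to 73 (E14.5 against E10.5), 12 to 21 (PA3 against PA2 in WT) and 25 to 36 calls (in HIRE1del), and 0 for HIRE1 deletion. Leaving out 1 library gave 58 to 65, 58 to 62, 69 to 71, 6 to 21 and 21 to 36 calls, and 0 for HIRE1 deletion in either arch and for the difference between the arches. The count for PA3 against PA2 in WT was 6 without replicate 3 of WT PA2 and 8 without replicate 3 of WT PA3, with a library fewer in the fit. Scaling by total counts alone moved the median of all genes from -0.01 to -0.13 between E12.5 and E14.5, and that of members from -0.47 to -0.59. With length-class medians subtracted, 4 values reversed: Cox4i1 (0.11 from E12.5 to E14.5, 0.02 from E10.5 to E14.5), Cox7a2l (0.06 from E12.5 to E14.5) and Atp5g2 (0.05 from E10.5 to E14.5). With a replicate block, the stage comparisons gave 62, 61 and 70 calls and HIRE1 deletion 0. Replicate numbers did not pair the stages (correlations -0.312 to 0.202) or the genotypes. With the number as a block within each genotype there were 21 calls in WT, 36 in HIRE1del and 0 for the difference between the arches.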
